A study of Homo sapiens with 3 samples.

Results

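The death receptors FAS, TNFRSF10A, TNFRSF10B and TNFRSF1A, the decoy receptors TNFRSF10C and TNFRSF10D, the adaptor FADD, the initiator caspase CASP8 and its inhibitor CFLAR were followed in HepG2 cells treated with etoposide. All probes on the array that carry one of these 9 gene names, control spots excepted, were taken whatever their values, which gave 13 of the 34127 probes and 9 of the 27274 gene names. HepG2 is an established human hepatocellular carcinoma line that expresses wild-type p53, and etoposide is an anticancer drug that traps topoisomerase II on DNA and leaves double-strand breaks. There was 1 array for each of 3 conditions, all 30 h long and all in the same line grown in medium with fetal bovine serum. The control received no etoposide (the labels name it untreated, whereas the paper names a DMSO control), and the others received a low dose (10 μM; low-dose cells) or a high dose (100 μM; high-dose cells). The study chose the doses to set a senescence-like arrest at the low dose beside apoptosis at the high dose. Without replicates, no difference between conditions could be tested, and all fold changes describe these 3 arrays.

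Death receptors are members of the tumor necrosis factor receptor family that carry a death domain inside the cell. In FAS, TNFRSF10A and TNFRSF10B, the death domain recruits FADD when the ligand binds. FADD recruits CASP8, and the caspase activates itself and then cleaves the effector caspases. CFLAR (also called FLIP) resembles CASP8 and occupies its place in the complex, whereas decoy receptors bind the ligand without passing on a full death signal. FAS and TNFRSF10B are known transcriptional targets of p53, and liver cells are known for their sensitivity to FAS.

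The array reads each transcript through a probe of 60 bases, and for some members the position of the probe decides which transcript forms are counted. The probes with a sequence shown here lie in coding sequence. The capitals in the FAS probe mark the stop codon of its open reading frame, and the CASP8 and CFLAR probes are shown because each gene has a second probe farther along the gene to compare with. Positions are those of the array files, on hg18.
FAS probe at chr10:90764128-90764187, plus strand: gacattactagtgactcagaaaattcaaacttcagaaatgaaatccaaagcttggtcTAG
CASP8 probe at chr2:201844501-201844560, plus strand: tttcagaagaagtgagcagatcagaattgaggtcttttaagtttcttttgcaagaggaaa
CFLAR probe at chr2:201708976-201709035, plus strand: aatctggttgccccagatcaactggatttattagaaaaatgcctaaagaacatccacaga

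The sequence before a transcription start of FAS is shown because FAS had the largest fold changes among the 9 genes. Windows from 250 bases before to 50 bases after RefSeq starts (GRCh38.p14) were at hand for 5 of the 9 members, 12 windows in all. The p53 decamer, the 10-base unit that is repeated in the p53 response element, was searched on both strands and found in 2 of these 12 windows, 1 of FAS and 1 of CASP8, compared with 6.63% of all 35116 windows. In the 250 bases of FAS below, the decamer is in capitals and lies 112 bases before that start, which is downstream of the other RefSeq starts of FAS. The GC box GGGCGG, searched on both strands, was present in 7 of the 12 windows and 45% of all windows, and it overlapped no p53 decamer. A match is a description of letters, and binding was not measured.
FAS at chr10:88991181-88991430 (GRCh38.p14), plus strand: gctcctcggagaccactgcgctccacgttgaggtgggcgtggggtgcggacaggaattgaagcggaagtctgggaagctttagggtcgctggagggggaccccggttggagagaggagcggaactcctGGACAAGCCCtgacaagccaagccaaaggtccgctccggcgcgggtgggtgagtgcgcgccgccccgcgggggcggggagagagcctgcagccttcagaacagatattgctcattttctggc

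The value of a probe is the background-subtracted fluorescence intensity of its spot, here called its signal, with repeated spots averaged. For fold changes, each array was divided by its 75th percentile over all probes, which was a signal of 514 in control cells, 536 in low-dose cells and 432 in high-dose cells. All 13 probes were well above background on all 3 arrays by the scanner software's own call, and none was saturated. A gene was represented by its brightest probe and was called higher or lower only past 2-fold. The error given is the spot SE, the standard error of the log2 fold change from the spread between spots on these arrays, and it does not cover differences between cultures. All 6 hepatocyte markers (among them ALB and AFP) were well above background on each array. Of markers of other cells, the 4 leukocyte markers were also well above background, with a summed signal of 1620 in control cells, 2050 in low-dose cells and 2841 in high-dose cells, the endothelial markers PECAM1 and VWF summed to 482, 310 and 312, and the fibroblast markers COL1A1 and COL3A1 did not rise above background on any array. The part of these other-cell markers in the values below was not tested. The known p53 targets CDKN1A and MDM2 were 7.94-fold and 7.03-fold higher in low-dose cells and 7.07-fold and 3.19-fold higher in high-dose cells than in control cells. The other probes of MDM2 gave 4.88-fold and 3.57-fold in low-dose cells and 2.77-fold and 2.2-fold in high-dose cells.

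In low-dose cells, 2 of the 9 genes were upregulated more than 2-fold, the death receptor FAS (3.82-fold) and the decoy receptor TNFRSF10D (2.14-fold), compared with 3.38% of the 16664 genes compared. None of the 9 was downregulated more than 2-fold, compared with 1.61% of those genes. In high-dose cells, only FAS passed 2-fold (2.97-fold), compared with 6.84% of the 16779 genes compared, and none was lower, compared with 3.71%. Between the doses none of the 9 differed by more than 2-fold, where 3.66% of 16688 genes were higher in low-dose cells and 3.97% were higher in high-dose cells. The counts depended on where the line was drawn. Past 1.5-fold, FAS and TNFRSF10D were higher in low-dose cells, where 9.06% of genes were higher and 6.5% lower, and also in high-dose cells, where 18.6% were higher and 9.82% lower. Past 3-fold by brightest probes, FAS alone was higher in low-dose cells, compared with 1.29% of genes higher and 0.39% lower. No member was in high-dose cells, compared with 1.88% higher and 1.69% lower. FAS lay close to that line in high-dose cells, at 2.97-fold by its brightest probe and 3.25-fold and 3.04-fold by its dimmer probes. Between the doses no member passed 1.5-fold by its brightest probe after scaling, compared with 7.52% of genes higher in low-dose cells and 14.4% higher in high-dose cells, nor 3-fold, compared with 1.89% and 0.857%. Before scaling, FAS (1.6-fold) and TNFRSF10B (1.83-fold) passed 1.5-fold in the direction of the low dose. Both also passed it with scaling on array medians (log2 0.63 and 0.83) and on spike-in controls (log2 0.59 and 0.79). With normexp background correction TNFRSF10B passed it and FAS did not (log2 0.73 and 0.30). With quantile normalization neither did (log2 0.38 for FAS and 0.53 for TNFRSF10B). After scaling, a dimmer probe of FAS passed it in that direction, and a dimmer probe of CFLAR in the direction of the high dose. In bulk RNA, a change in the share of cells that express a gene and a change in RNA per cell cannot be told apart.

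**Figure D1:**
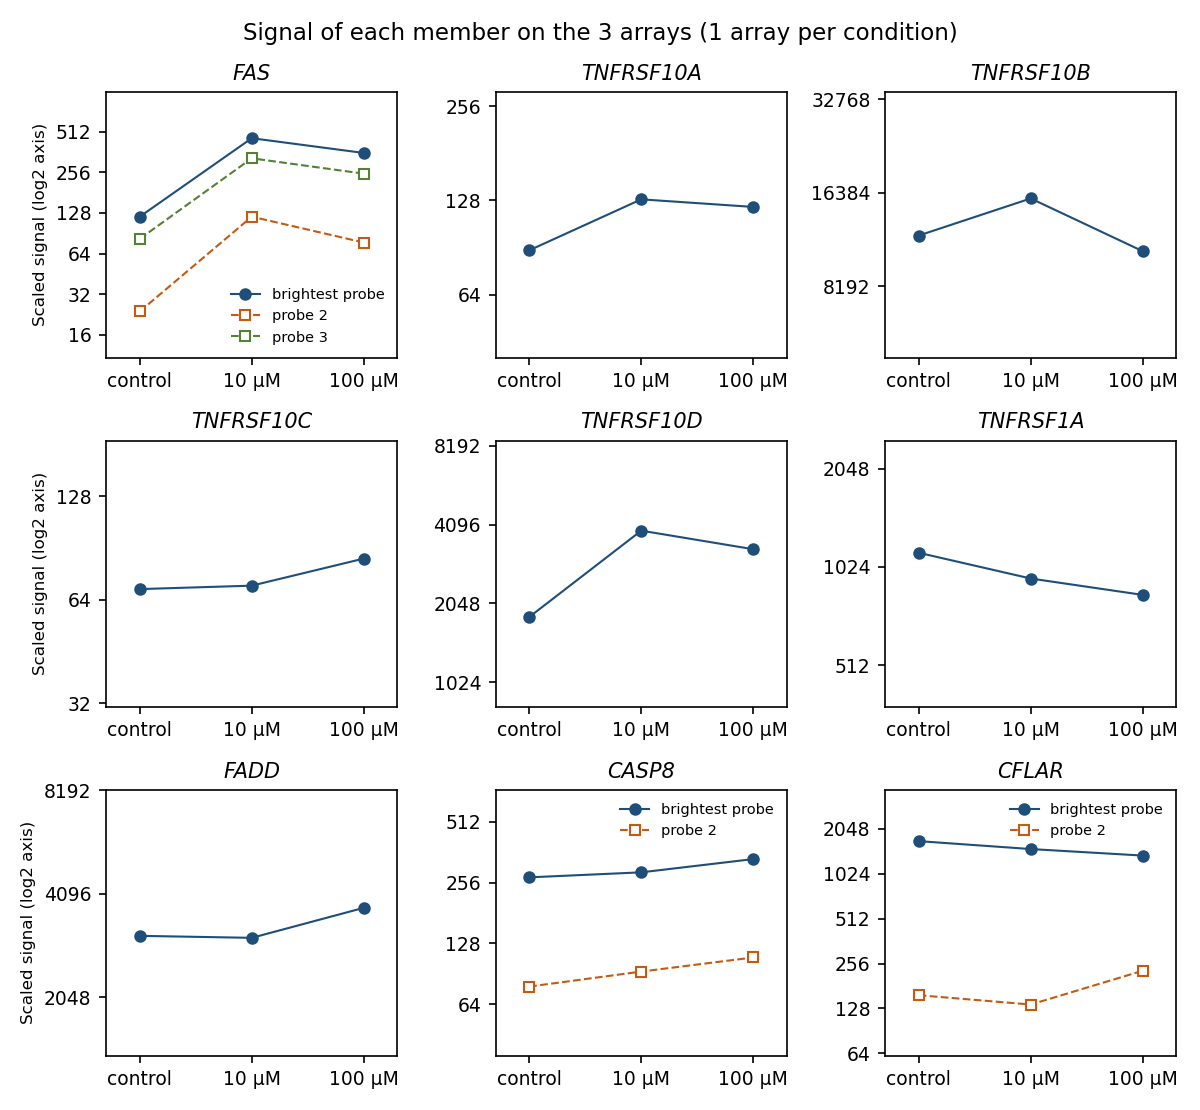
Signal of each probe of the 9 genes, scaled to the control array (vertical log axis), on the control, 10 μM and 100 μM arrays. There is 1 array per condition, and lines join the values of a probe. FAS stood lowest in control cells at all 3 of its probes, and TNFRSF10D rose from 1817 to 3883 in low-dose cells. Signals given in the text are before scaling unless stated.

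FAS, the receptor of FAS ligand, was measured by 3 probes. The brightest, at chr10:90764525-90764584 and spotted 10 times, had a signal of 120 in control cells, 478 in low-dose cells and 300 in high-dose cells. Its spots ranged from 108 to 132 in control cells, from 458 to 507 in low-dose cells and from 282 to 318 in high-dose cells, so the spots of the 3 arrays did not overlap. The log2 fold change was 1.93 (spot SE 0.04) in low-dose cells and 1.57 (spot SE 0.04) in high-dose cells, and 132 genes in low-dose cells and 318 in high-dose cells had a larger one. FAS was thus 1.29-fold higher in low-dose than in high-dose cells after scaling, and 1.6-fold before it.

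The probe that ends at the stop codon of FAS was dimmer, at 23.8 in control cells, 125 in low-dose cells and 64.9 in high-dose cells. It was 5.05-fold higher in low-dose cells and 3.25-fold higher in high-dose cells than in control cells. The third probe, which shares 32 bases with the brightest, read 82.2, 339 and 211 in the same order, or 3.95-fold and 3.04-fold. All 3 probes of FAS were therefore past 2-fold at both doses and highest in low-dose cells. The stop codon probe differed from the brightest by 0.40 on the log2 scale in low-dose cells, with a spot SE of 0.31. Between the doses it was 1.56-fold higher in low-dose cells (log2 0.64, spot SE 0.14), compared with 1.29-fold by the brightest probe.

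The TRAIL receptors TNFRSF10A, TNFRSF10B, TNFRSF10C and TNFRSF10D lie together, and their probes span 172 kb of chromosome 8 on hg18. TNFRSF10D, a decoy receptor with a truncated death domain, had a signal of 1817 in control cells, 4052 in low-dose cells and 2773 in high-dose cells. Its log2 fold change was 1.10 (spot SE 0.07) in low-dose cells and 0.86 (spot SE 0.07) in high-dose cells, so it lay just above 2-fold at the former and at 1.82-fold at the latter. In low-dose cells 2.74% of all genes compared had a larger fold change than TNFRSF10D, and in high-dose cells 9.56% did.

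TNFRSF10B (DR5), a death receptor for TRAIL, was bright at 11928 in control cells, 16385 in low-dose cells and 8933 in high-dose cells. It was highest in low-dose cells and lowest in high-dose cells, with fold changes over control of 1.32 (log2 0.40, spot SE 0.06) and 0.891 (log2 -0.17, spot SE 0.07), both inside 2-fold. The difference between doses was 1.48-fold after scaling and 1.83-fold before it. Of the genes compared, 7.98% had a larger fold change of the low over the high dose.

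TNFRSF10A (DR4), the other death receptor for TRAIL, read 88.7 in control cells, 134 in low-dose cells and 102 in high-dose cells. Its fold changes were 1.45 and 1.37, with log2 values of 0.54 (spot SE 0.12) and 0.46 (spot SE 0.13), and neither passed 2-fold. TNFRSF10C, a decoy receptor held at the membrane by a lipid anchor, read 68.7, 73.4 and 70.9, or 1.02-fold in low-dose cells and 1.23-fold in high-dose cells. The spot SE of TNFRSF10C was 0.15 and 0.16 on the log2 scale, against log2 fold changes of 0.03 and 0.30.

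**Figure D2:**
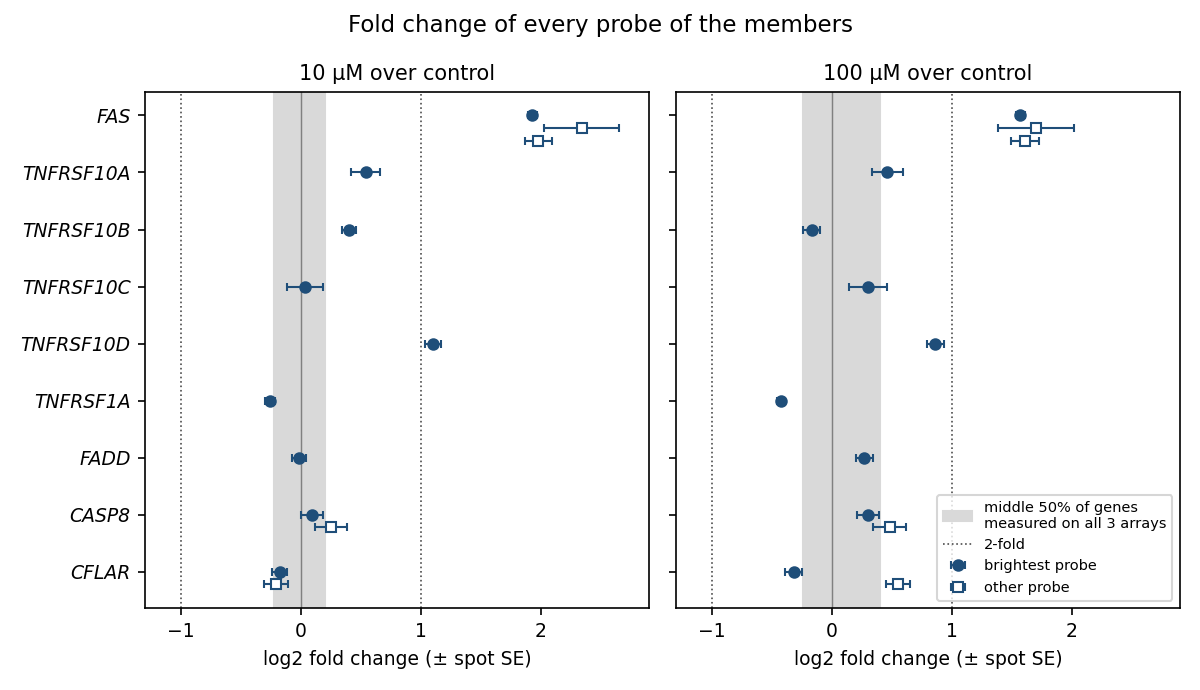
Log2 fold change over control of every probe of the 9 genes at 10 μM and 100 μM, with bars of 1 spot SE, dotted lines at 2-fold and a band for the middle 50% of genes measured on all 3 arrays. FAS lies past 2-fold at both doses by all 3 probes and TNFRSF10D in low-dose cells, and the other genes lie between the lines.

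TNFRSF1A, the main receptor of tumor necrosis factor, was the only receptor of the 9 whose signal was highest in control cells. Its probe, at chr12:6308325-6308384 and spotted 10 times, read 1132 in control cells, 985 in low-dose cells and 707 in high-dose cells. The log2 fold change was -0.26 (spot SE 0.04) in low-dose cells and -0.43 (spot SE 0.03) in high-dose cells, both inside 2-fold. After scaling, the spots of control cells (1039 to 1251) lay above those of both doses (853 to 1007 and 771 to 875), and the spots of the doses overlapped. Before scaling, the spots of low-dose cells (890 to 1051) overlapped those of control cells. Those of high-dose cells (649 to 736) then lay below both, so which arrays separated depended on the scaling. Without scaling the fold change in high-dose cells was 0.625, compared with 0.743 after it.

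**Figure D3:**
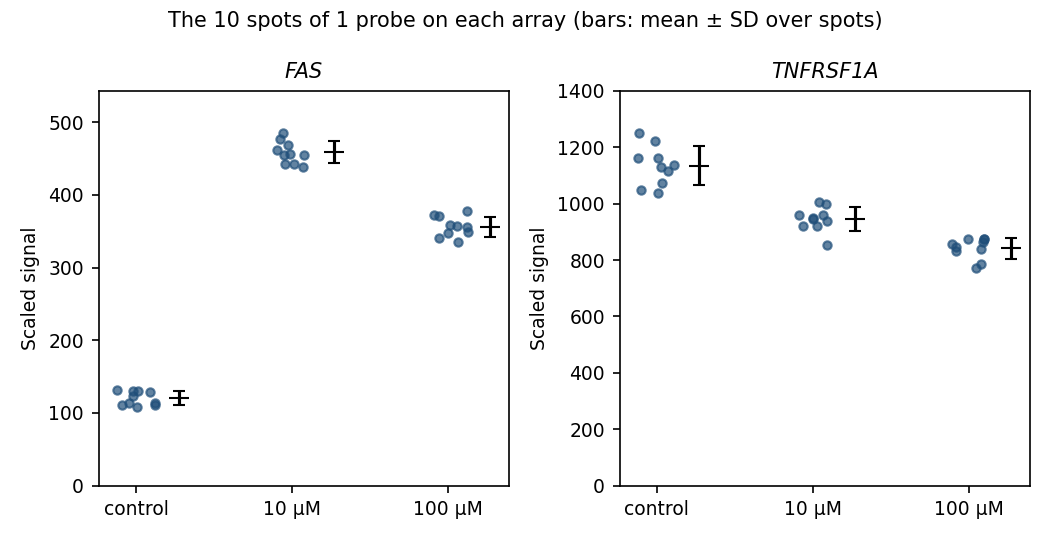
Signal of each of the 10 spots of the FAS and TNFRSF1A probes on the 3 arrays, scaled to the control array. The FAS spots form 3 separate groups, from 108 to 132 in control cells, 439 to 485 in low-dose cells and 336 to 378 in high-dose cells, whereas the TNFRSF1A spots of the doses overlap.

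None of the 3 genes that act inside the cell passed 2-fold. FADD, the adaptor at chr11:69730953-69731012, read 3089 in control cells, 3180 in low-dose cells and 3134 in high-dose cells. These signals were within 1.03-fold of each other before scaling, and scaling gave 0.986-fold in low-dose cells and 1.21-fold in high-dose cells. FADD had the smallest log2 fold change of the 9 in low-dose cells, -0.02 with a spot SE of 0.06. Its direction depended on the processing in all 3 comparisons, with log2 values from -0.04 to 0.04 in low-dose cells and from -0.02 to 0.33 in high-dose cells.

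CASP8, the initiator caspase, read 272 in control cells, 301 in low-dose cells and 281 in high-dose cells by its brightest probe at chr2:201860083-201860142. This was 1.06-fold in low-dose cells and 1.23-fold in high-dose cells. The coding probe printed above read 78.2, 96.8 and 91.5, or 1.19-fold and 1.39-fold. The log2 fold changes of the 2 probes, whose starts lie 15582 bases apart, differed by 0.16 (spot SE 0.15) in low-dose cells and 0.18 (spot SE 0.16) in high-dose cells.

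CFLAR was the gene whose probes differed. The coding probe printed above is the brightest and lies in sequence that the long and short forms of the protein share. It read 1689 in control cells, 1560 in low-dose cells and 1137 in high-dose cells, or 0.885-fold and 0.80-fold. The other probe, at chr2:201733443-201733502 and assigned by the array to the mRNA of the long form, read 157, 142 and 193, or 0.867-fold and 1.46-fold. For the low over the high dose it gave 0.594-fold (log2 -0.75, spot SE 0.10), whereas the brightest probe gave 1.11-fold (log2 0.15, spot SE 0.07). The probes thus gave nearly the same value in low-dose cells, with a log2 difference of -0.03 (spot SE 0.12), and opposite directions in high-dose cells, with a log2 difference of 0.87 (spot SE 0.13). This difference between probes within an array is not altered by a common scale factor per array, and neither probe passed 2-fold.

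Over the 9 genes, the median log2 fold change was 0.09 in low-dose cells and 0.30 in high-dose cells, compared with -0.04 and 0.10 over all genes compared. The median in high-dose cells rested on the scaling, since it was 0.05 without scaling, 0.01 with scaling on the median of each array and 0.12 with scaling on spike-in controls. The values ranged from -0.26 to 1.93 in low-dose cells and from -0.43 to 1.57 in high-dose cells. In each comparison 6 of the 9 were above 0 and 3 were below, where 45.5% of all genes were above 0 in low-dose cells over control, 56.8% in high-dose cells over control and 40.6% for the low over the high dose. FAS was the highest and TNFRSF1A was the lowest at both doses.

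Beside the 9 genes, 45 further genes of the pathway in 5 lists were read from the same arrays, and 36 of them could be compared. In low-dose cells 5 of the 36 were higher and none was lower, and in high-dose cells 4 were higher and 2 were lower. Of all genes compared, 3.38% were higher and 1.61% lower in the former, and 6.84% were higher and 3.71% lower in the latter. These lists were chosen with earlier results of these data known. The median log2 fold change of the 36 was 0.11 in low-dose cells and 0.12 in high-dose cells.

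Of 6 death receptor ligands, only TNFSF10 (TRAIL) was well above background, whereas FASLG, the ligand of FAS, and TNF, LTA, LTB and TNFSF15 did not pass that call on any array. TNFSF10 read 341 in control cells, 282 in low-dose cells and 411 in high-dose cells. It was lowest in low-dose cells, with fold changes of 0.792 and 1.43, and it was highest where its receptor TNFRSF10B was lowest, with neither past 2-fold over control.

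Of 9 other receptors and soluble decoys, 6 could be compared, and 2 were higher at each dose with a median log2 fold change of 0.48 and 0.80. TNFRSF25 (DR3), a death receptor, read 299, 674 and 627 and was 2.16-fold and 2.49-fold higher, although its second probe was not well above background. NGFR, the low-affinity neurotrophin receptor with a death domain, was above background only with etoposide, at low signals of 46.1 and 37.1. It was at least 2.26-fold higher at both doses, a bound close to the threshold. Its spot SE on the log2 scale, taken without the bound, was 0.60 and 0.61. TNFRSF6B, a soluble decoy of FAS ligand, was 0.993-fold and 1.57-fold, and TNFRSF21 (DR6), the lowest of the list in high-dose cells, had log2 fold changes of 0.11 and 0.00.

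Of 14 adaptors, kinases and ubiquitin ligases, 13 could be compared, and their median log2 fold change was 0.08 in low-dose cells and 0.12 in high-dose cells. PIDD1, a p53-induced death domain protein that the array names LRDD, read 3091, 11180 and 6611 and was 3.47-fold and 2.54-fold higher. FAF1, a FAS-associated factor, read 2204, 1557 and 889 and was lower in high-dose cells only (0.48-fold, compared with 0.677-fold in low-dose cells).

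Of 10 genes of the caspases and the mitochondrial link, 1 was higher in low-dose cells and none in high-dose cells, with medians of 0.06 and 0.09. APAF1, the scaffold of the apoptosome, read 33.0, 80.4 and 33.7 and was 2.34-fold higher in low-dose cells and 1.22-fold in high-dose cells. These signals were low, and the spot SE was 0.23 and 0.30 against log2 fold changes of 1.23 and 0.28. CASP6 was the lowest in low-dose cells (0.845-fold), CASP9 the highest in high-dose cells (1.49-fold), and BID, which carries the death receptor signal to mitochondria, the lowest in high-dose cells (0.696-fold).

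Of 6 inhibitors of apoptosis, with medians of 0.10 and 0.06, 1 was higher at each dose and 1 was lower in high-dose cells. BIRC7 read 66.6, 144 and 117 and was 2.08-fold and 2.09-fold higher, the latter being 1.76-fold without scaling. BIRC5 (survivin), which also acts in chromosome segregation at mitosis, read 16560, 12226 and 1145 and was 0.707-fold in low-dose cells and 0.0822-fold in high-dose cells.

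**Figure D4:**
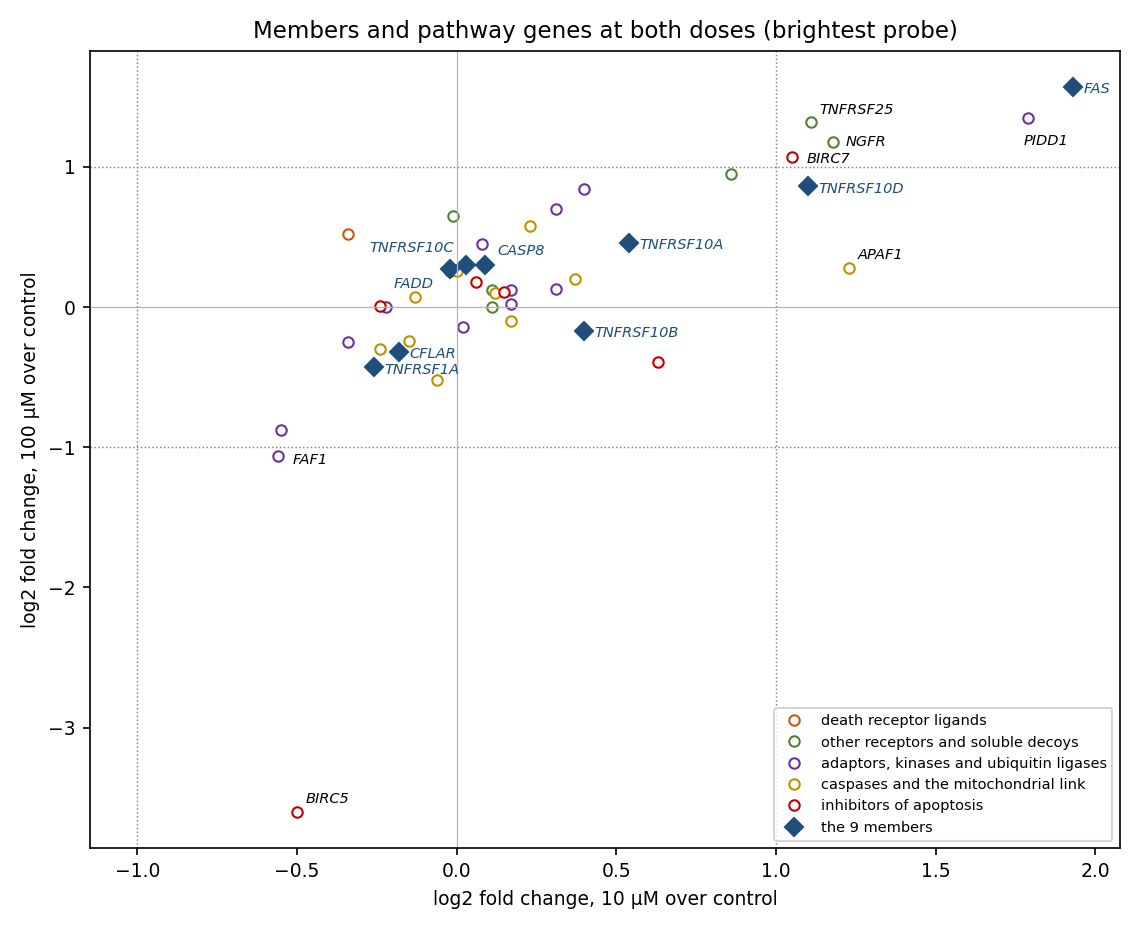
Log2 fold change at 100 μM (vertical axis) against that at 10 μM (horizontal axis) for the 9 genes (diamonds) and the 36 pathway genes compared (circles, colored by list), with dotted lines at 2-fold. Both axes share the control array, NGFR is drawn at its lower bound, FAS and PIDD1 lie at the upper right and BIRC5 lies lowest.

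FAS and TNFRSF10B also belong to a list of 10 known p53 targets in apoptosis, of which 9 could be compared. Of the 9, 5 were higher in low-dose cells and 3 in high-dose cells by their brightest probes, with medians of 1.03 and 0.61. Of all genes compared, 3.38% were higher in low-dose cells and 6.84% in high-dose cells, with median log2 fold changes of -0.04 and 0.10. FAS was among the genes counted at both doses. TP53INP1 was the highest of the list (6.77-fold and 6.05-fold), TP53I3 was 5.76-fold and 3.87-fold higher, and TNFRSF10B was the lowest at both doses. By their brightest probes BAX and AEN were 2.07-fold and 2.04-fold in low-dose cells and 1.53-fold and 1.26-fold in high-dose cells. The second probe of each gene stayed inside 2-fold, at 1.38-fold for BAX and 1.91-fold for AEN in low-dose cells.

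Among 12046 genes with a RefSeq mRNA that were well above background on all 3 arrays, those nearest to FAS in their log2 fold changes at both doses were TIGD3 (3.52-fold and 2.91-fold), C1orf183, now INKA2 (4.25-fold and 2.85-fold), and TNNI2 (3.75-fold and 2.64-fold). Their distances from FAS on the log2 scale were 0.123, 0.165 and 0.171. Nearest to TNFRSF10B were NUP62, SRC and FZD6, at distances of 0.014, 0.025 and 0.027. These distances rest on 3 arrays and the shared control.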

How the data were processed

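Cy3-labeled RNA of HepG2 cells was measured on 1-color Agilent arrays, 1 per condition, and conditions were taken from the labels. The authors deposited, for each array, the background-subtracted intensity of the spots, made with Feature Extraction (version 10.7.3.1, per the submitters' processing notes), and a table of the series holding the same intensity values. No scaling between arrays had been applied. Here, outlier spots were left out, spots of a probe were averaged on the log2 scale, and the 75th percentile of each array over 34127 probes, each counted once, was subtracted.

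Genes were compared where the brighter of the conditions was well above background, and a dimmer value below the lowest such signal of its array was set to that signal (19.5, 22.7 and 21.6 in control cells, low dose and high dose). The spot SE came from a probe's own 10 spots or, for single spots, from the 50 repeated probes nearest in signal. With 1 array per condition no test was run, and the number of arrays limits the precision.

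The members and gene lists were chosen with earlier results of these data known. Genes named are all 9 members, pathway genes past 2-fold over control, the highest and lowest gene of each list, CDKN1A, MDM2 and the 3 nearest patterns of FAS and TNFRSF10B. Steps were tested on simulated data. Alternatives were no scaling, other scalings, normexp with an offset of 50, other filters, other probe rules, outlier spots kept, the series table and thresholds of 1.5-fold and 3-fold. Promoter windows came from RefSeq and matched 5 of 9 members. Python 3.11.15, pandas 2.3.3, numpy 2.4.6, R 4.3.3 and limma 3.58.1 were used.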

Additional observations from a re-analysis of the deposited data

How the results depend on the processing

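No paired analysis was possible because there was 1 array per condition, and leaving out an array would leave no comparison. FAS and TNFRSF10D in low-dose cells and FAS in high-dose cells were the members past 2-fold under every scaling, background, filter and probe rule tried. By brightest probes with the scaling used, 2 members were past 1.5-fold at the high dose. With 3-fold, 1 was in low-dose cells and 0 in high-dose cells. FAS at the high dose (log2 1.57) lay close to 3-fold, and its values ranged from 1.20 with normexp to 1.64 with the percentile over every spot. It was past 3-fold in the latter and with the mean of a gene's probes (log2 1.63). The median log2 fold change of the members moved at the low dose from 0.09 to 0.15 without scaling and 0.17 with the mean of a gene's probes. At the high dose it moved from 0.30 to 0.05 without scaling, 0.01 with median scaling and 0.12 with spike-in scaling. For the low over the high dose it moved from 0.15 to 0.46 without scaling, 0.41 with median scaling, 0.37 with spike-in scaling and 0.07 with the percentile over every spot. Over genes well above background on all arrays, the median of the high dose over control was 0.08 with the scaling used, -0.17 without scaling and -0.21 with median scaling. Of 27 member comparisons, 19 kept 1 sign throughout. The others were FADD in all 3, CFLAR at the high dose (-0.61 to 0.11) and between doses, and TNFRSF10A, TNFRSF10C and CASP8 between doses.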
